A study of Homo sapiens with 6 samples.

Results

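The HOX genes encode transcription factors with a homeodomain, a DNA-binding fold whose recognition helix sits in the major groove. They lie in 4 clusters, and within a cluster the gene number follows the order along the chromosome. Low-numbered genes are used toward the head of the embryo and high-numbered genes toward the tail, so the set a cell keeps expressing is read as a record of the body position it came from. Genes of the same number in different clusters are paralogs, and PBX and MEIS proteins of the TALE class bind DNA together with HOX proteins. The 38 HOX genes described here were taken from the 60483 genes listed in every count table by matching the Ensembl gene ID to a gene symbol, with no limit on the count. They were 10 HOXA, 10 HOXB, 9 HOXC and 9 HOXD genes.

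RNA-seq was performed on cells labelled 253J, which the study describes as a human bladder cancer line. There were 3 libraries labelled control (replicates 1, 2 and 3) and 3 labelled siFTO (replicates 4, 5 and 6). FTO is an RNA demethylase that removes the m6A mark. All 6 cultures were kept in RPMI-1640 with fetal bovine serum and are labelled passage 16-19. The labels describe transfection with control siRNA or FTO siRNA, whereas the methods of the study describe shRNA carried by a plasmid, so the agent behind the label siFTO is not settled. All libraries came from a single line, and nothing states that the replicates were separate cultures, so the p-values measure a spread between libraries that may be technical.

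The libraries held between 10991789 and 19891269 counts, so the 3 counts taken here as the limit of detection equalled 0.151 to 0.273 CPM, the count scaled to the size of the library. FTO itself was at 31.8, 21.4 and 31.2 CPM in the controls and at 20.2, 20.7 and 15.7 CPM in the siFTO libraries. These values were scaled by TMM, edgeR's trimmed-mean library scaling. The edgeR adjusted p was 0.0209, and 0.107 and 0.113 without control replicate 1 or 3. By library totals the groups overlapped, with control replicate 2 at 19.8 CPM and siFTO replicates 4 and 5 at 21 and 21.2 CPM. With library totals alone the edgeR adjusted p was 0.0576. Of 10 urothelial markers, the bladder lining's own genes, only PPARG and KRT13 passed 10 CPM in any library, and UPK1B was at 0 in all 6, whereas 6 or 7 of 8 intestinal epithelial markers passed 10 CPM in every library. Of the siFTO libraries, replicates 4 and 5 stood apart: the summed level of 11 mesenchymal markers was 19.9 to 21.9 CPM in the controls, 32.1 CPM in replicate 6, and 1265.3 and 1488.8 CPM in replicates 4 and 5, with THY1 and COL3A1 at or near 0 throughout. VIM alone gave 663.1 and 747.7 CPM in replicates 4 and 5, where 5 of the 11 passed 10 CPM. PDGFRB was at 7.46, 4.39 and 4.83 CPM in the controls and at 7.23, 6.94 and 3.65 CPM in replicates 4, 5 and 6. Of 7 leukocyte markers the sum was 3.46 to 5.46 CPM in the controls, 6.61 CPM in replicate 6, and 69.2 and 82.5 CPM in replicates 4 and 5, nearly all of it CD74, with PTPRC and CD3E at or near 0. The part of these markers in the HOX results was not tested, and the HOX calls that changed without those libraries are given with both values.

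The part of the homeodomain that reads DNA is coded by a short stretch with many bases in common between members, and it is shown here for the paralogs of number 9 and for the most abundant HOXB genes. The sequences come from GENCODE 29 transcripts, run 5′ to 3′ on the coding strand, and capitals mark the bases that differ from HOXB9. Each stretch of 30 bases codes for part of the recognition helix and lies in the last exon of its gene. Over all 38 members it differs from HOXB9 by at most 9 bases.
HOXB9: tggtttcagaaccggcggatgaaaatgaag
HOXA9: tggttCcagaaccgCAggatgaaaatgaag
HOXC9: tggtttcagaaTcgAAggatgaaGatgaaA
HOXD9: tggtttcagaaccgTAggatgaaaatgaaA
HOXB8: tggttCcagaaccggAggatgaaGTGgaaA
HOXB7: tggtttcagaaccggcgCatgaaGTGgaaA
HOXB6: tggttCcagaaccgAcgCatgaaGTGgaaA
HOXB5: tggttCcagaaccggcgCatgaaGTGgaag
HOXB3: tggttCcagaaccggcgCatgaaGTACaag

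The HOXB9 stretch lies at chr17:48622930-48622959 on the minus strand (GRCh38). HOXA9 and HOXD9 each differ from it by 3 bases and HOXC9 by 5, and all 4 code for the same amino acids there. The HOXB genes of lower number differ from it by 5 to 7 bases. Such likeness bears on how reads are assigned to a gene, so the longest exact runs shared by any pair of the 38 genes' transcripts were counted. Among 703 pairs, 7 have overlapping exons, and of the others 20 share a run of at least 30 bases, 3 share at least 50 bases (HOXB3 with HOXD3, HOXB4 with HOXB5, and HOXB6 with HOXB7) and 0 share 75 or more.

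The control libraries expressed a HOX code dominated by the HOXB cluster. Of the 38 genes, 20 were expressed, defined as at least 1 CPM of the library total in all 3 controls. These were 8 of 10 HOXB genes (HOXB3 to HOXB9 and HOXB13), 6 of 10 HOXA genes (HOXA3, HOXA5, HOXA9, HOXA10, HOXA11 and HOXA13), 5 of 9 HOXC genes (HOXC4, HOXC6, HOXC9, HOXC10 and HOXC11) and, of 9 HOXD genes, HOXD8 alone. A further 16 genes had at least 1 count in some control but did not meet that limit, and HOXA6 and HOXD4 had 0 counts in all 3. HOXA5 lay just inside the limit at 1.82, 1.11 and 1.46 CPM, and HOXC8 lay just outside it at 1.18, 0.618 and 1.21 CPM.

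Levels of different genes were compared per kilobase of exon. HOXB9, a gene of the trunk and tail part of the code, had the highest level in the controls, at 160.2, 148.5 and 150.4 CPM per kb (mean 153.0 ± 6.31 SD, n = 3). It was followed by HOXB7 at 90.4 ± 9.89, HOXB8 at 75.5 ± 3.84, HOXB6 at 57.4 ± 2.56 and HOXB5 at 36.7 ± 5.72 CPM per kb. HOXB3 came next at 17.1 ± 5.33 CPM per kb, with 10.9 in replicate 2 against 20.5 and 19.7 in replicates 1 and 3, and HOXB4 stood at 5.17 ± 0.495 CPM per kb. At each of these steps, and from HOXB4 to HOXC6 (3.54 ± 0.238) and from HOXC6 to HOXC11, all 3 controls of the higher gene lay above all 3 of the next.

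Below HOXC6 most neighbours in the order were not separated. HOXC11, HOXA11, HOXB13, HOXA13, HOXA10, HOXC9 and HOXD8 had mean levels of 2.65, 2.53, 2.47, 2.13, 2.09, 1.7 and 1.44 CPM per kb, and from HOXC11 down to HOXD8 the control values of each overlapped those of the next. Over all 37 steps of the order, 11 separated the controls fully, the 8 from HOXB9 down to HOXC11 and the steps from HOXD8 to HOXA3, from HOXA9 to HOXC8 and from HOXB2 to HOXC12. The same 7 HOXB genes led when the longest transcript, or the exon bases shared with no other gene, served as the length, but HOXB6 then moved between positions 3 and 4. HOXB6 shares 32.9% of its exon bases with HOXB3 and the antisense gene HOXB-AS3, whereas HOXB7, HOXB8, HOXB9 and HOXB13 share none with another gene.

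The HOXB cluster spans chr17:48528526-48729178 (GRCh38), and it held 94.7% to 95.5% of the summed HOX level per kb in the 3 controls. HOXA (chr7:27100354-27200106) held 1.9% to 2.37%, HOXC (chr12:53938765-54056030) 2.25% to 2.48% and HOXD (chr2:176092891-176190907) 0.364% to 0.446%. The expressed genes thus ran from number 3 to number 13, with the highest levels at numbers 5 to 9 of HOXB and levels under 4 CPM per kb in the other clusters, where HOXC6 was the highest.

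**Figure D1:**
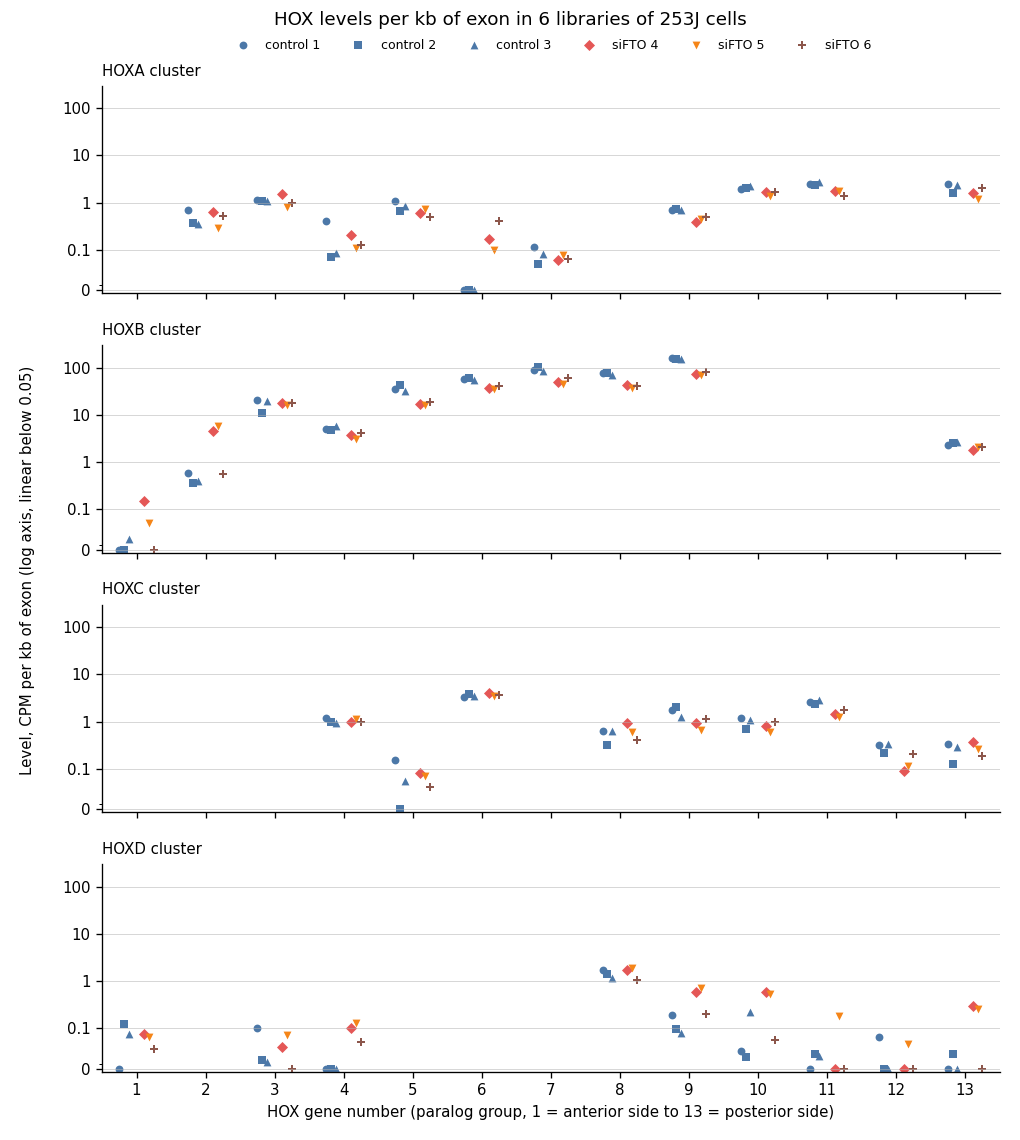
Level of each of the 38 HOX genes in CPM per kb of exon (vertical, log axis that is linear below 0.05) against its number (horizontal), 1 panel per cluster and 1 point per library, controls in blue and siFTO libraries in red, orange and brown. HOXB3 and HOXB5 to HOXB9 lie at 10.9 CPM per kb or more in all 6 libraries, and the HOXB5 to HOXB9 points of the siFTO libraries lie below those of the controls.

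The summed HOX level fell in the siFTO libraries. All 38 genes together gave 1185.0, 1115.8 and 1117.9 CPM of the library total in the controls and 721.9, 652.7 and 748.0 CPM in siFTO replicates 4, 5 and 6. The groups did not overlap, and a two-sided exact permutation test gave p = 0.1, the smallest p that 3 against 3 libraries allow. As cells were sequenced in bulk, fewer cells with HOX transcripts and fewer transcripts per cell cannot be told apart. HOXB9 made up 34.4% to 34.9% of all HOX reads in the controls and 26.6% to 28% in the siFTO libraries. The HOXB share of the level per kb was 92% to 93.3% in the siFTO libraries, so the same cluster led in both groups. The number of expressed genes was 20 in both groups and 19 genes were shared, since HOXA5 met the limit only in the controls and HOXB2 only in the siFTO libraries.

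Of the 38 genes, 25 had enough counts for edgeR's quasi-likelihood test, and 13 did not. Of the 25, 13 were lower in siFTO at an adjusted p under 0.05, which is 52%, against 17.9% of the 14965 genes tested. HOXB2 alone was higher, which is 4%, against 19.5% of all genes tested. The median log2 fold change (siFTO over control) was -0.51 over the HOX genes tested and 0.01 over all genes tested. These shares are a description of members that passed the count filter, and the 13 others are given by their counts. HOXC12, among the lower genes, passed that filter only through the controls, where it was high. All 13 genes called lower had siFTO values below all control values, by either TMM or library totals. This was so for 25.6% of all genes tested and 98.9% of all genes called lower by TMM, and for 18.5% and 90.2% by library totals. Leaving out control replicate 1 left 7 lower genes and 0 higher, and leaving out control replicate 3, siFTO replicate 4 or siFTO replicate 5 left 8 lower genes. The count of higher genes was 0 without control replicate 2 or 3 and 3 without siFTO replicate 6, when HOXD9 and HOXD10 joined HOXB2. HOXD9 and HOXD10 had failed the count filter in the main fit. They passed it there only through siFTO replicates 4 and 5, where they were high, so these calls are a description only.

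**Figure D2:**
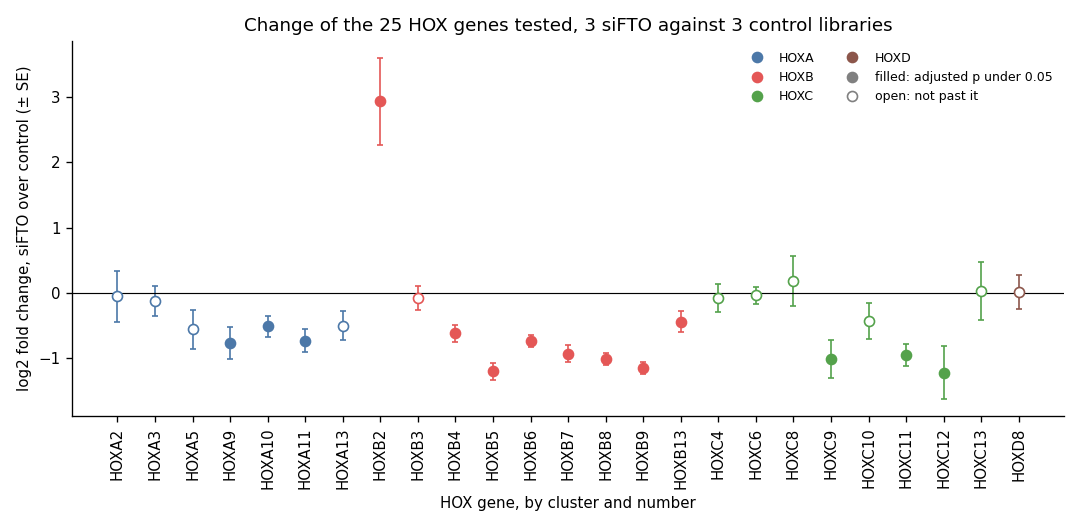
log2 fold change of siFTO over control with its standard error (vertical) for the 25 HOX genes tested, by cluster and number (horizontal), filled where the adjusted p was under 0.05. HOXB4 to HOXB9 and HOXB13 lie between -1.20 and -0.44, HOXB3 lies at -0.08 and HOXB2 at 2.93.

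In the HOXB cluster 7 of 9 genes tested were lower, beside 17.9% of all genes tested, and HOXB9 had the lowest adjusted p of all HOX genes. HOXB9 (ENSG00000170689.9) was at 422.9, 415.5 and 398.9 CPM in the controls and at 184.0, 174.1 and 200.9 CPM in the siFTO libraries. The siFTO mean was 45.2% of the control mean, and the log2 fold change was -1.15 ± 0.09 (SE; adjusted p = 6.71e-05). All 3 siFTO libraries lay at a similar level, far below the lowest control. HOXB5, a gene of the neck and upper trunk, was at 73.6, 95.2 and 66.9 CPM in the controls and at 32.9, 32.8 and 36.6 CPM in the siFTO libraries (log2 fold change -1.20 ± 0.13, adjusted p = 0.000439). Control replicate 2 was the highest for HOXB5, but the siFTO values were tight and below all 3 controls.

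HOXB8, a trunk gene also known from leukemia, stood at 161.2, 174.3 and 150.0 CPM in the controls and at 85.7, 73.4 and 81.6 CPM in the siFTO libraries (log2 fold change -1.01 ± 0.09, adjusted p = 0.00019). HOXB7 was at 135.6, 168.3 and 130.2 CPM in the controls against 73.6, 65.8 and 89.2 CPM (log2 fold change -0.93 ± 0.13, adjusted p = 0.00108). HOXB6 was at 155.6, 167.2 and 145.7 CPM in the controls against 93.5, 88.1 and 99.5 CPM (log2 fold change -0.74 ± 0.09, adjusted p = 0.000618). In these 3 genes too the groups were separate. Replicate 6 lay among or close to replicates 4 and 5 for HOXB8 and HOXB6, and above both for HOXB7. The HOXB7 log2 fold change was -1.07 without replicate 6 and -0.70 without replicates 4 and 5. The median log2 ratio to the control mean over HOXB5 to HOXB9 was -0.98, -1.14 and -0.99 in replicates 4, 5 and 6.

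HOXB4, known for expanding blood stem cells when overexpressed, was at 19.5, 19.2 and 22 CPM in the controls and at 13.2, 11.6 and 14.9 CPM in the siFTO libraries (log2 fold change -0.62 ± 0.13, adjusted p = 0.00525). HOXB13, the gene at the tail end of the cluster and a marker of prostate, was at 8, 9.51 and 9.3 CPM in the controls against 5.87, 6.96 and 7 CPM (log2 fold change -0.44 ± 0.16, adjusted p = 0.0481). Both changes were smaller in size than those of HOXB5 to HOXB9, a difference that was not tested. The HOXB13 call was lost without any 1 of the controls or of siFTO replicates 4 and 5, with adjusted p-values from 0.0764 to 0.169, and without both of the latter its value was -0.36 with an adjusted p of 0.31. With replicate 6 as the only siFTO library the HOXB4 value was -0.44 and its adjusted p 0.123.

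HOXB3, in the same cluster, was not called. It was at 156.7, 88.3 and 150.9 CPM in the controls and at 129.3, 116.1 and 129.2 CPM in the siFTO libraries (log2 fold change -0.08 ± 0.18, adjusted p = 0.75). The siFTO values lay inside the wide range of the controls, where replicate 2 was the low one. Without control replicate 2 the log2 fold change was -0.30 with an adjusted p of 0.0456. The HOXB9 count was 2.7, 4.71 and 2.64 times the HOXB3 count in the controls and 1.42, 1.5 and 1.56 times in the siFTO libraries, so the ratio was lower in every siFTO library with and without control replicate 2. HOXB3 shares 13.2% of its exon bases with HOXB4, HOXB6, HOXB-AS1 and HOXB-AS3, and the strand setting of the counting is not known.

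**Figure D3:**
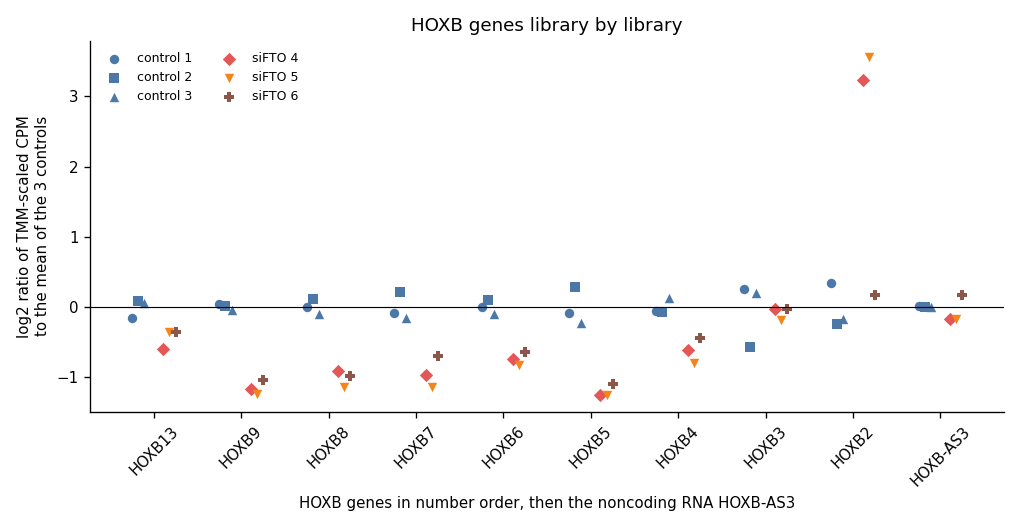
log2 ratio of each library's TMM-scaled CPM to the mean of the 3 controls (vertical) for the HOXB genes tested and the noncoding RNA HOXB-AS3 (horizontal), 1 point per library. For HOXB4 to HOXB9 and HOXB13 all siFTO points lie below all control points, while HOXB2 is high in replicates 4 and 5 only.

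Of the 9 genes of numbers 9 to 13 tested in HOXA and HOXC, 6 were called lower, beside 17.9% of all genes tested. They fell from levels far under those of HOXB5 to HOXB9. HOXC12, counted among the 6, passed the count filter only through the controls, so its call is a description only. HOXA11, known for limb and uterus development, was at 5.95, 5.83 and 6.51 CPM in the controls and at 3.89, 4.04 and 3.06 CPM in the siFTO libraries (log2 fold change -0.73 ± 0.18, adjusted p = 0.012). HOXC11 was at 8.84, 8.44 and 9.77 CPM in the controls against 4.53, 4.04 and 5.47 CPM (log2 fold change -0.95 ± 0.17, adjusted p = 0.00288). HOXC9 was at 3.07, 3.75 and 2.17 CPM in the controls against 1.49, 1.12 and 1.82 CPM (log2 fold change -1.01 ± 0.29, adjusted p = 0.0209). For HOXC9 the gap between the groups was small beside the spread of the controls, and the call was lost without control replicate 1 or 2 or siFTO replicate 4 or 5 (adjusted p from 0.0681 to 0.118). The HOXA11 call was lost without control replicate 1 or 3 (adjusted p = 0.0582 and 0.0685). Without siFTO replicates 4 and 5 the HOXC11 value was -0.72 with an adjusted p of 0.0589, and the HOXC9 value was -0.69 with an adjusted p of 0.274, so neither was called.

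HOXA9, a partner of MEIS1 in leukemia, had counts of 23, 36 and 43 in the controls and 16, 22 and 20 in the siFTO libraries (log2 fold change -0.77 ± 0.24, adjusted p = 0.029). HOXA10, needed for uterus patterning, was at 7.35, 8.37 and 8.58 CPM in the controls against 5.87, 5.1 and 6.12 CPM (log2 fold change -0.51 ± 0.16, adjusted p = 0.0293). HOXC12 had counts of 12, 12 and 22 against 4, 6 and 9 (log2 fold change -1.22 ± 0.40, adjusted p = 0.0345). HOXC12 passed the count filter only through the controls, where it was high, so its call is a description only. It was at 1.09, 0.742 and 1.11 CPM of the library total there, against 0.295, 0.382 and 0.684 CPM. The groups were separate in all 3 genes, but each call was lost without any 1 of the controls or of siFTO replicates 4 and 5. The adjusted p-values were then 0.0732 to 0.117 for HOXA9, 0.0651 to 0.111 for HOXA10 and 0.0972 to 0.165 for HOXC12. Without siFTO replicates 4 and 5 the log2 fold changes were -0.63, -0.41 and -0.63, with adjusted p-values of 0.313, 0.259 and 0.511. These 3 genes and HOXB13 were also not called with DESeq2 (adjusted p = 0.124, 0.0533, 0.135 and 0.0881), with library totals alone or with no filter on low counts.

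The other HOXA, HOXC and HOXD genes tested did not pass the threshold. HOXA13, a gene of the hindgut, genital tract and distal limb, was at 12.9, 8.71 and 12.1 CPM in the controls and at 7.85, 5.91 and 10.2 CPM in the siFTO libraries (log2 fold change -0.50 ± 0.22, adjusted p = 0.0968). Its groups overlapped through replicate 6, and without that library the log2 fold change was -0.72 and the adjusted p 0.00792, whereas without replicates 4 and 5 they were -0.14 and 0.736. HOXC6, the most abundant HOXC gene per kb, stood at 12.1, 14.6 and 12.7 CPM in the controls against 13.7, 12.2 and 12.5 CPM (log2 fold change -0.04 ± 0.13, adjusted p = 0.843). HOXD8, the only expressed HOXD gene, was at 4.56, 4.09 and 3.2 CPM against 4.32, 4.85 and 2.62 CPM (log2 fold change 0.01 ± 0.26, adjusted p = 0.973). The remaining 7 genes, HOXA2, HOXA3, HOXA5, HOXC4, HOXC8, HOXC10 and HOXC13, had log2 fold changes between -0.56 (HOXA5, adjusted p = 0.17) and 0.18 (HOXC8, adjusted p = 0.725), and in each of them the groups overlapped.

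By number, a division made after the values were seen, 8 of 11 tested genes of numbers 9 to 13 were lower, 4 of 8 of numbers 5 to 8, and 1 of 6 of numbers 1 to 4. Of all genes tested 17.9% were lower, and 1 of 6 is near that share. With DESeq2, library totals alone or no filter, only HOXA11, HOXB9, HOXC9 and HOXC11 of numbers 9 to 13 were lower. HOXB5 to HOXB8 stayed lower in each of these. A trend along the numbers was not tested. The median log2 fold changes of these classes were -0.73, -0.65 and -0.08. By cluster, 3 of 7 HOXA, 7 of 9 HOXB, 3 of 8 HOXC and 0 of 1 HOXD genes tested were lower, beside the same 17.9%, with medians of -0.51, -0.74, -0.26 and 0.01. The shares by number and by cluster both count HOXC12, whose call is a description only. Among the paralogs of number 9, HOXA9, HOXB9 and HOXC9 were lower, while HOXD9 was not tested for want of counts.

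With siFTO replicate 6 as the only siFTO library against the 3 controls, 6 genes were still called lower, HOXA11 and HOXB5 to HOXB9, and the count of higher genes was 0. The lone library is assumed there to vary like the controls. HOXB5 to HOXB9 passed the threshold in all 15 alternative analyses, and the highest adjusted p of these genes was 0.0218, for HOXB7.

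HOXB2, which patterns the hindbrain, was the gene that rose, and it rose in replicates 4 and 5 alone. Its counts were 15, 14 and 19 in the controls, 147 and 209 in siFTO replicates 4 and 5, and 17 in replicate 6. The level was 1.4, 0.938 and 0.982 CPM in the controls, 10.4 and 13 CPM in replicates 4 and 5, and 1.24 CPM in replicate 6, which lay inside the control range. The log2 fold change was 2.93 ± 0.67 (adjusted p = 0.00773), but it was 0.20 with an adjusted p of 0.824 without replicates 4 and 5, and limma voom gave an adjusted p of 0.0906. Without any 1 control the adjusted p was 0.0659 to 0.086. Replicates 4 and 5 are the libraries with the high sum of mesenchymal markers described above.

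The 13 genes left out of the test were read by their counts. HOXD13, a gene of the distal limb and the genital and urinary tract, was the only member seen in siFTO replicates 4 and 5 alone, defined as at least 5 counts in both, at most 3 counts in replicate 6 and at most 3 over the 3 controls. Its counts were 0, 1 and 0 in the controls, 9 and 9 in replicates 4 and 5, and 0 in replicate 6. The same limits were met by 707 of the 60483 genes listed, or 1.17%. As 1 of 38 genes, HOXD13 is no more than a single example of that class, and its 18 counts allow no statement on level beyond detection. The 250 bases before its RefSeq start lie at chr2:176092471-176092720 on the plus strand (GRCh38.p14) and are shown because the gene is at or near 0 in the other 4 libraries.
HOXD13: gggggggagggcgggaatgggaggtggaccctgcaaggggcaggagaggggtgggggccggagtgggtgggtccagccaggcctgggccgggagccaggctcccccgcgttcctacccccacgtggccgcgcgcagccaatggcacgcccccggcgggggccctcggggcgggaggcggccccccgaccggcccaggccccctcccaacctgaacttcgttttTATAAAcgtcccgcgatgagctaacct

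The capitals mark TATAAA, the core of a TATA box, whose first base is at position -27 from the start. The motif was searched on both strands, the match on the other strand overlaps this one, and 10.7% of 35116 RefSeq promoter windows of this length hold it. The window holds 21 CpG pairs, and 30.2% of all windows hold as many or more. Of the 38 members 20 had such a window in the reference table.

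The members of number 9 and 10 in HOXD leaned the same way without meeting the limits. HOXD9 had counts of 4, 3 and 3 in the controls, 15 and 21 in replicates 4 and 5, and 5 in replicate 6. HOXD10, which is used in the motor neurons of the hindlimb, had 1, 1 and 12 counts in the controls, 21 and 23 in replicates 4 and 5, and 2 in replicate 6. Control replicate 3 alone held 12 of the 14 control counts of HOXD10, so the controls differed among themselves for this gene.

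A different pattern was seen in HOXA6 and HOXD4, the 2 genes with no count in any control. HOXA6 had 3, 2 and 7 counts in siFTO replicates 4, 5 and 6, highest in replicate 6, and HOXD4 had 2, 3 and 1. With no filter on low counts edgeR gave adjusted p = 0.0178 for HOXA6, 0.12 for HOXD4, 0.0171 for HOXD9, 0.0229 for HOXD13 and 0.0543 for HOXD10. These genes were singled out by the same few counts, so the values are a description and lend the patterns no support. A count of 0 in a control library allows up to 0.151 to 0.273 CPM. Of the 38 members 24 share exon bases with another gene, among them HOXA6 with 40.1% and HOXD4 with 80.5% of their exon bases.

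The last 8 genes had at most 8 counts in any library. HOXB1, the most anterior gene of its cluster, had 0, 0 and 1 counts in the controls and 5, 2 and 0 in the siFTO libraries. HOXD11 had 0, 1 and 1 counts in the controls and 0, 6 and 0 in the siFTO libraries. HOXA4 had 13 counts over the controls and 11 over the siFTO libraries, HOXA7 had 9 and 7, HOXC5 had 5 and 5, HOXD1 had 7 and 5, HOXD3 had 6 and 6, and HOXD12 had 1 and 1. No difference was detectable at this depth for these genes.

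**Figure D4:**
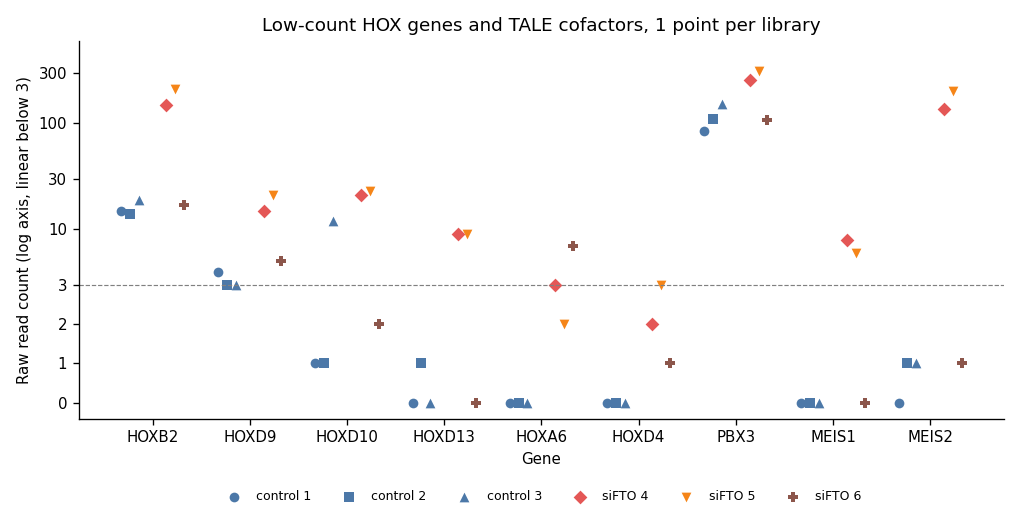
Raw read counts (vertical, log axis that is linear below 3) of 6 HOX genes and 3 TALE cofactor genes (horizontal), 1 point per library, with the limit of 3 counts as a broken line. HOXB2, HOXD4, HOXD9, HOXD10, HOXD13, MEIS1, MEIS2 and PBX3 are highest in siFTO replicates 4 and 5, while HOXA6 is highest in replicate 6. HOXD4 has only 2 and 3 counts there, and HOXD10 has 12 counts in control replicate 3.

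Genes that work with or on the HOX clusters were read in the same fit. Of 9 TALE cofactors 6 were tested, 1 was lower (PBX4, log2 fold change -0.35, adjusted p = 0.048) and 1 was higher (PBX3, 0.98, adjusted p = 0.0199). Both shares are near the 17.9% lower and 19.5% higher of all genes tested. PBX3 was at 7.82, 7.3 and 7.91 CPM in the controls, 18.3 and 19.3 CPM in replicates 4 and 5, and 7.87 CPM in replicate 6, high in the libraries where HOXB2 was high, and its log2 fold change was 0.04 without replicates 4 and 5. Both calls were lost without any 1 of the controls or of siFTO replicates 4 and 5 (adjusted p from 0.0706 to 0.152), and PBX4 was at -0.09 (adjusted p = 0.538) with the offset for length and GC content. MEIS2 had 0, 1 and 1 counts in the controls, 137 and 203 in replicates 4 and 5 and 1 in replicate 6, and MEIS1 had 0 counts outside replicates 4 and 5, where it had 8 and 6. MEIS1 and MEIS2 were thus seen in replicates 4 and 5 only, as were 1.17% of all genes listed.

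The ParaHox genes, an ancient sister group of the HOX clusters, include CDX2, an activator of posterior HOX genes and of intestinal identity. Of 6 ParaHox genes 3 were tested and 2 were lower, beside 17.9% of all genes tested. CDX2 was at 244.7, 282.8 and 247.8 CPM in the controls and at 139.3, 142.3 and 169.1 CPM in the siFTO libraries (log2 fold change -0.78 ± 0.10, adjusted p = 0.000832), with replicate 6 low as well. PDX1, a factor of pancreas and duodenum, changed by -0.56 ± 0.10 (adjusted p = 0.00267). The PDX1 value was -0.31 with the offset for length and GC content, and its call was lost without siFTO replicates 4 and 5 together. CDX1 was at 133.2, 150.5 and 121.8 CPM against 123.0, 126.6 and 151.1 CPM, with overlapping groups.

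Of 18 noncoding RNAs of the HOX clusters 10 were tested, 2 were lower and 1 was higher. These shares are near or below the 17.9% lower and 19.5% higher of all genes tested. HOXA11-AS, which lies opposite HOXA11, was lower (-1.17 ± 0.35, adjusted p = 0.0239), as HOXA11 was. HOTAIR, a noncoding RNA of the HOXC cluster known for its link to Polycomb, was lower (-0.72 ± 0.22, adjusted p = 0.026). HOXB-AS1 was higher, from 5, 2 and 4 counts in the controls to 17, 11 and 11 in the siFTO libraries (1.82 ± 0.49, adjusted p = 0.0166). HOXB-AS1 passed the count filter only through the siFTO libraries, where it was high, so its call is a description only. HOXA11-AS passed it only with the controls, where it was high. HOXB-AS3, the most abundant of the HOXB antisense RNAs, was at 51.8, 51.1 and 51.4 CPM in the controls and at 45.8, 45.4 and 57.8 CPM in the siFTO libraries (-0.05 ± 0.11, adjusted p = 0.738). The calls of these noncoding RNAs were lost without some single libraries: HOXA11-AS without any 1 control or siFTO replicate 4 (adjusted p from 0.058 to 0.138), HOTAIR without any 1 control or siFTO replicate 4 or 5 (0.0532 to 0.111) and HOXB-AS1 without control replicate 2 or 3 or siFTO replicate 4 (0.0783 to 0.119). The HOXB antisense genes tested were HOXB-AS1, HOXB-AS3 and HOXB-AS4. HOXB-AS4 was at 6.05, 6.7 and 6.87 CPM in the controls and at 5.24, 3.92 and 6.34 CPM in the siFTO libraries (-0.35, adjusted p = 0.194). None of them was called lower, beside 17.9% of all genes tested, and so few genes allow no contrast with HOXB4 to HOXB9. Reads of opposite strands cannot be told apart where exons overlap.

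Polycomb proteins keep HOX clusters silent and Trithorax proteins keep them active. All 23 regulators read here were tested, 3 were lower and 9 were higher, beside 17.9% and 19.5% of all genes tested. The lower genes were CBX7 (-0.63, adjusted p = 0.00125), CBX8 (-0.43, adjusted p = 0.00438) and RING1 (-0.41, adjusted p = 0.0117), all subunits of Polycomb repressive complex 1. The higher genes were led by RBBP5 (0.67, adjusted p = 0.00443), RNF2 (0.64, adjusted p = 0.00711), KMT2D (0.60, adjusted p = 0.00283) and KDM6A (0.55, adjusted p = 0.021). RNF2 is the other RING subunit of Polycomb repressive complex 1, while RBBP5 and KMT2D belong to a histone methyltransferase complex of the Trithorax class. CBX7, RBBP5 and KMT2D passed the threshold in all 15 alternative analyses. Leaving out 1 library ended the calls of RING1 (control replicate 1 or siFTO replicate 4, adjusted p = 0.0503 and 0.0506) and of KDM6A (control replicate 1 or 2 or siFTO replicate 4, 0.0605 to 0.0799). With the offset for length and GC content RING1 was at -0.07 (adjusted p = 0.5). The calls of CBX8, RNF2, RING1 and KDM6A were lost without siFTO replicates 4 and 5 together.

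The genes flanking the clusters were read beside them. Of the 10 nearest protein-coding neighbours of HOXB, 4 were lower (TTLL6, CALCOCO2, SNF8 and ATP5MC1, log2 fold changes of -0.63, -0.43, -0.42 and -0.39), 1 was higher (COPZ2, 1.61) and 5 did not pass the threshold, beside 17.9% lower and 19.5% higher of all genes tested. All 4 lower genes were among the 5 on the HOXB13 side, and on the HOXB1 side 0 of 5 were lower and COPZ2 was higher. COPZ2 was at 3.81, 3.82 and 3.26 CPM in the controls, 12.7 and 17.8 CPM in replicates 4 and 5, and 2.48 CPM in replicate 6, and without replicates 4 and 5 its log2 fold change was -0.54. The calls of TTLL6 (any 1 library, adjusted p from 0.0552 to 0.109), ATP5MC1 (any 1 control or siFTO replicate 4, 0.0531 to 0.111) and COPZ2 (any 1 control or siFTO replicate 4 or 5, 0.0928 to 0.167) were lost when those libraries were left out. Beside HOXA, EVX1, a homeobox gene next to HOXA13, was lower (-0.87, adjusted p = 0.00137), as was HIBADH (-0.54), while JAZF1 (1.80) and CREB5 (1.62) were higher. So 2 of 10 changed in each direction, near the shares of all genes tested. JAZF1 was not called without control replicate 2 or 3 or siFTO replicate 4 (adjusted p from 0.05 to 0.0991), nor CREB5 without any 1 of the controls or of siFTO replicates 4 and 5 (0.0689 to 0.164). JAZF1 and CREB5 passed the count filter only through the siFTO libraries, where both were high. Beside HOXC, 3 of 9 tested were lower (ATP5MC2, HNRNPA1 and SMUG1, -0.72, -0.45 and -0.38) and 0 were higher, against the same 17.9% and 19.5% of all genes tested. Without siFTO replicates 4 and 5 together the calls of TTLL6, SNF8, JAZF1, CREB5, HNRNPA1 and SMUG1 were lost. The SMUG1 call was also lost with library totals alone.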

How the data were processed

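RNA-seq counts of reads per gene, deposited by the authors as 1 table per library, were analysed from 3 control and 3 siFTO libraries. Nothing had been done to scale these deposited counts. TopHat2 2.0.11, TopHat, HTSeq, hg19 and GRCh37 are listed in the submitters' processing notes, while the annotation release, strand setting and treatment of overlapping genes were not given in the sources used here. All 6 count columns were used.

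Genes were filtered with filterByExpr (minimum count 10, minimum total 15), scaled by TMM and tested across 14965 genes with the quasi-likelihood test of edgeR 4.0.16 in R 4.3.3, two-sided, with the group as the only term and Benjamini-Hochberg adjustment at 0.05. CPM beside a fold change use TMM-scaled sizes, while CPM for expression limits, summed levels, markers and levels per kb use library totals. Ensembl IDs were matched, version removed, to symbols and to the lengths and positions of GENCODE 29 (GRCh38), a release and build that need not be those of the counting. Promoter windows came from RefSeq on GRCh38.p14. The test was also run on simulated counts with known changes.

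The members, the lists and the rule for naming genes were chosen with earlier results of these data known. The rule was all 38 HOX genes, FTO, of every other list up to 4 genes in each direction past the threshold by size of change and up to 2 more by level, and neighbours only of clusters with a called HOX gene. CDX1, MEIS1 and MEIS2 were named after their values were seen. Alternatives were other scalings, no filter and a stricter filter, DESeq2 1.42.0, limma voom 3.58.1, a length and GC offset, an adjusted p under 0.01, leaving out each library and, added after seeing the data, leaving out siFTO replicates 4 and 5 together. Neighbours of HOXD were tested but are not described. One item of the lists is not reported here.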

Additional observations from a re-analysis of the deposited data

How the results depend on the processing

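HOXB5 to HOXB9 kept their direction and their call in all 15 alternatives. Over the 373 values of single HOX genes under an alternative, 290 kept direction and side of the threshold, 54 lost the call, 3 gained it and 26 changed sign, none of them a called HOX gene. The 13 lower genes became 7 at an adjusted p under 0.01, 7 to 14 without 1 library and 6 without siFTO replicates 4 and 5, and 9 to 13 under the other scalings, filters and tools. The count of higher genes was 4 with no filter, 0 with limma voom, 0 without siFTO replicates 4 and 5, and 0 to 3 without 1 library. The genes that joined HOXB2 with no filter or without siFTO replicate 6 had failed the count filter of the main fit. The median log2 fold change of the HOXB genes (-0.74) was -0.61 with library totals alone, under which the median of all genes moved from 0.01 to 0.13, -0.54 with the length and GC offset and -0.65 without siFTO replicates 4 and 5. HOXA9, HOXA10, HOXB13 and HOXC12 lost their calls with DESeq2, library totals alone and no filter, and HOXA10, HOXB13, HOXC9 and HOXC12 with the offset. The cause of these shifts was not tested.

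Genes that were not called took the other sign: with library totals HOXA2 (0.07), HOXA3 (0.00), HOXB3 (0.03), HOXC4 (0.04), HOXC6 (0.09) and HOXB-AS3 (0.07); with the offset HOXA2 (0.11), HOXC4 (0.02), HOXC6 (0.05) and HOXB-AS3 (0.18); with upper-quartile factors HOXD8 (-0.01); and without siFTO replicates 4 and 5 HOXA2 (0.10), HOXC8 (-0.51), HOXC13 (-0.50), HOXD8 (-0.56) and HOXB-AS3 (0.17). COPZ2, called higher at 1.61, reversed to -0.54 without siFTO replicates 4 and 5. Without 1 library the log2 fold changes ranged from -0.30 to 0.26 for HOXA2, -0.41 to 0.06 for HOXA3, -0.30 to 0.05 for HOXB3, -0.10 to 0.05 for HOXC6, -0.16 to 0.41 for HOXC8, -0.28 to 0.23 for HOXC13, -0.17 to 0.23 for HOXD8 and -0.18 to 0.01 for HOXB-AS3.

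A limit of 5 CPM left 13 HOX genes expressed in the controls and 0.5 CPM gave 24. The HOXB share of the level per length (mean 95.0%) was 94.5% over exon bases shared with no other gene. HOXD13 no longer met the limits for siFTO replicates 4 and 5 when 10 counts were asked in both, which left 0 genes, or 0 counts in the controls and replicate 6, which also left 0. Few counts limit most HOXD genes. No paired analysis was possible because the replicate numbers of the controls (1 to 3) and of the siFTO libraries (4 to 6) are not shared.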
